A study of Mus musculus with 16 samples.

Results

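The comparison described here set a variant of the transcription factor GATA2, called 9aa-Ins, against normal GATA2 by ATAC-Seq, an assay in which a transposase inserts sequencing adapters where chromatin is open. It used 4 hi-77-/- 9aa-Ins and 4 hi-77-/- GATA2 libraries, 8 of the 16 libraries in the series. All cells were mouse hematopoietic progenitors from fetal liver, made to grow indefinitely by HoxB8 joined to the hormone-binding part of an estrogen receptor, with β-estradiol in the medium. hi-77-/- cells lack the Gata2 -77 enhancer on both alleles, so both groups started from the same enhancer-mutant background. Both were infected with an MSCV retrovirus and then cultured for 3 d. The virus expressed GFP and either HA-tagged murine Gata2 cDNA or the same cDNA with 9 amino acids inserted between the N- and C-zinc fingers. The other 8 libraries, 4 of hi-77-/- cells and 4 of hi-77+/+ cells (enhancer intact) with an empty vector, gave reference values. FACS-isolated cells were used for every library. The cDNA was driven by a retroviral vector and not by Gata2 regulatory DNA, and the cells were an immortalized line. The study calls the libraries of a group biological replicates, and the sources used here do not say whether they came from separate infections. The p-values below measure the spread between these libraries.

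GATA2 is a zinc-finger transcription factor needed to make and maintain hematopoietic stem and progenitor cells. Its C-finger binds the sequence WGATAR, where W is A or T and R is A or G, and the N-finger adjusts binding and contacts partner proteins. GATA factors open chromatin at many of the sites they bind, often beside an E-box bound by basic helix-loop-helix proteins such as TAL1, and they also lower the activity of genes that drive alternative fates, including those of B cells, monocytes and neutrophils. The -77 enhancer is one of the elements that keep Gata2 expressed in myeloid progenitors.

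From each library the 49000 peaks of highest significance on chromosomes 1 to 19 and X were kept, and those from the 16 libraries were joined wherever they shared 1 bp or more, which gave 90549 regions. A region was called open with 9aa-Ins only when it had a peak in 4 of 4 9aa-Ins and 0 of 4 GATA2 libraries, and open with GATA2 only in the reverse case. By this rule 2685 regions, 2.97% of all, were open with 9aa-Ins only and 1335, 1.47%, were open with GATA2 only. These 2 sets are the 4020 changed regions described below, and 66.8% of them lay on the 9aa-Ins side. The call is a rule and not a test, because a single region scored present or absent in 4 against 4 libraries cannot pass an adjusted threshold.

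Windows of 200 bp from the reference genome (RefSeq, GRCm38, + strand) give examples of changed regions, and each window is centred on the median peak summit of its region. They were chosen for the genes nearby and because they hold a searched motif, so they do not show how common a motif was, and other changed regions at Gata1 and Csf2rb held no WGATAR. The first 5 were open with GATA2 only, and capitals mark WGATAR or its reverse complement. They lie 13 kb upstream of Capzb, which encodes an actin capping protein (chr4:139179841-139180040), 53.5 kb upstream of the homeobox gene Emx2 (chr19:59404748-59404947), 11.9 kb upstream of Slc18a2, the vesicular monoamine transporter that loads histamine into mast cell granules (chr19:59248864-59249063), 7.2 kb upstream of Csf2rb, the shared receptor chain for GM-CSF, IL-3 and IL-5 (chr15:78318449-78318648), and 3.56 kb upstream of the transcription start site (TSS) used for Gata1, the erythroid GATA factor (chrX:7971367-7971566).
Capzb: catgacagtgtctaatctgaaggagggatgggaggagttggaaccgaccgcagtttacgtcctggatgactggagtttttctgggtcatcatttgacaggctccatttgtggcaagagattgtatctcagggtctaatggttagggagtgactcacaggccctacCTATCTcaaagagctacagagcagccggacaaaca
Emx2: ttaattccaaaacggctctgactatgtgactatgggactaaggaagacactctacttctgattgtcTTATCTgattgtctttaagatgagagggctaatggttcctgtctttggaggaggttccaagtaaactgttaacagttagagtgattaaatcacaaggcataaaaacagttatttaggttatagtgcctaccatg
Slc18a2: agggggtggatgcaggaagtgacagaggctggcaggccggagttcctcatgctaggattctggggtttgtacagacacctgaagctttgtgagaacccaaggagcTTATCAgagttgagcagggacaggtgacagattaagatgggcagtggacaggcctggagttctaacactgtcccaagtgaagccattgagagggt
Csf2rb: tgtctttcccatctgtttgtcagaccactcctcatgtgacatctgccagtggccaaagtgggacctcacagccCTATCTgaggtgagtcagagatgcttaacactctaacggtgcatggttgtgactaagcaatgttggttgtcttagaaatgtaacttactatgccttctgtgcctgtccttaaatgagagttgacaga
Gata1: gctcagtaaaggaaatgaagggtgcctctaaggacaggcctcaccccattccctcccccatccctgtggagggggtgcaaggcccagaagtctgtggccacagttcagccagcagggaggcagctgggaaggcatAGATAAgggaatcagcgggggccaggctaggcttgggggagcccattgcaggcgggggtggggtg

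The next 5 windows were open with 9aa-Ins only and hold no WGATAR. Capitals mark matches to ETS and RUNX letters 16.8 kb downstream of the TSS of the ETS repressor gene Etv3 (chr3:87542323-87542522), to PU.1 and RUNX letters 34.8 kb upstream of the LIM-domain gene Lmo1 (chr7:109209909-109210108), to C/EBP letters 37.6 kb downstream of the TSS of Tmed3 (chr9:89667413-89667612), to PU.1 letters 3.68 kb upstream of the IL-21 receptor gene Il21r (chr7:125599718-125599917), and to C/EBP letters in an intron of the chemokine receptor gene Cxcr2 (chr1:74156509-74156708). They are shown as examples of these letters in windows without WGATAR, and each kind of letters was in a minority of the regions open with 9aa-Ins only.
Etv3: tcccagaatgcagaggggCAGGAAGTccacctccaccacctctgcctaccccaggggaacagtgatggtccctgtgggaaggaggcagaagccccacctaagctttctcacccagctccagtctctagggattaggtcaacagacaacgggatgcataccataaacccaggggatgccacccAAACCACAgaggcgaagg
Lmo1: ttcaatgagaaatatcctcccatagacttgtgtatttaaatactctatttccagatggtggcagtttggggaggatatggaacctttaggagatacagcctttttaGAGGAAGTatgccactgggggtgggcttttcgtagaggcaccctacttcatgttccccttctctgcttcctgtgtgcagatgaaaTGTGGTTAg
Tmed3: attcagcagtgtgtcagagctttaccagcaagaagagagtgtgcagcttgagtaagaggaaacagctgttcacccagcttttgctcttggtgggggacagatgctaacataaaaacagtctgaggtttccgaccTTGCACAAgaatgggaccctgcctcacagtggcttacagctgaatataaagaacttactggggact
Il21r: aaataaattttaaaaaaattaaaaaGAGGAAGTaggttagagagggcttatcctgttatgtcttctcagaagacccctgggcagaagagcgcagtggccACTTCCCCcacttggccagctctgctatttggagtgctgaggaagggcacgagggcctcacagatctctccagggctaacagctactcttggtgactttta
Cxcr2: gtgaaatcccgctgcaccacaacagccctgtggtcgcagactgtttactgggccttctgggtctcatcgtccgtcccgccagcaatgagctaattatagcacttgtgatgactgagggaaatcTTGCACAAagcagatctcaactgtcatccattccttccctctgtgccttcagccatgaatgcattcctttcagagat

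**Figure D1:**
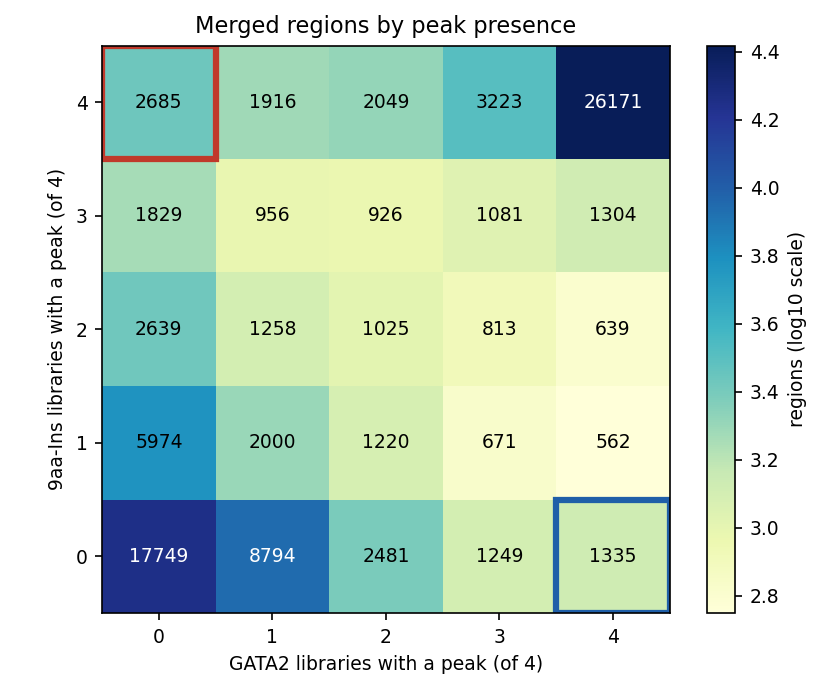
Number of merged regions for each combination of 9aa-Ins libraries with a peak (vertical axis, 0 to 4) and GATA2 libraries with a peak (horizontal axis, 0 to 4), over 90549 regions, with color on a log10 scale. The framed corners hold 2685 regions open with 9aa-Ins only and 1335 open with GATA2 only, and 26171 regions had a peak in all 8 libraries.

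Of the 90549 regions, 26171 (28.9%) were open in each of the 8 libraries and 17749 lacked a peak in every one of them, being open only in cells with an empty vector. Just outside the rule, 1829 regions had a peak in 3 of 4 9aa-Ins and 0 of 4 GATA2 libraries and 1916 in 4 of 4 and 1 of 4, against 1249 and 562 in the opposite direction. When absence was required in the full deposited peak lists and not only among the kept peaks, 1104 regions were open with 9aa-Ins only and 377 with GATA2 only, so most called regions had a weaker peak, below the 49000 kept, in at least 1 library of the other group.

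The libraries differed in peak shape as well as in place, and these values may bear on any count given here. The kept peaks were wider with 9aa-Ins (median 336 ± 38.2 bp) than with GATA2 (218 ± 31.6 bp; SD, n = 4 each), and they covered 22.9 ± 2.59 against 16.5 ± 2.53 Mb (adjusted exact permutation p = 0.0429 for each, over 6 values per library). The -log10 p of the last peak kept was 8.75 to 11.7 with 9aa-Ins and 5.35 to 7.43 with GATA2. The deposited lists held 70219 to 107594 and 49852 to 77687 peaks, a difference within the spread (adjusted exact p = 0.103). Read totals are unknown. The background pileup, an approximate relative depth, averaged 0.591 ± 0.0564 and 0.626 ± 0.189 (exact p = 0.8). The part of peak width and strength in the counts was not tested beyond the alternative settings.

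To score each library on regions it did not help to choose, the call was repeated 8 times with a library left out. A left-out 9aa-Ins library had peaks in 85.6 ± 3.70% of the regions then open with 9aa-Ins only, and a left-out GATA2 library in 15 ± 3.74%. For regions open with GATA2 only, the shares were 9.51 ± 1.01% and 81.1 ± 2.84%. The repeated calls share most of their libraries, and the left-out library still took part in the merging of peaks. The scores are therefore not independent of each other, and they are given as descriptions without a p-value.

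The next question was whether a changed region had been gained or lost relative to hi-77-/- cells with an empty vector, which the call did not use. Regions open with GATA2 only were mostly closed before: 1018 of 1335 (76.3%) had no peak in any of the 4 hi-77-/- empty libraries, and 18 (1.35%) had one in all 4. Regions open with 9aa-Ins only were mostly open before: 1213 of 2685 (45.2%) had a peak in all 4 hi-77-/- empty libraries and 380 in 3 of them, whereas 534 (19.9%) had none. Over all 90549 regions, 36.3% had a peak in all 4 of these libraries and 35.6% in none.

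Scored by library, 60.6 to 66.1% of the regions open with 9aa-Ins only had a peak in a hi-77-/- empty library (63.6 ± 2.55%, n = 4), and 13.7 to 22.2% in a hi-77+/+ empty library (18.1 ± 3.51%). For regions open with GATA2 only, the values were 8.69 to 12.8% (10.1 ± 1.86%) and 17.5 to 22.2% (20.1 ± 2.01%). The first set thus lay mainly in chromatin that hi-77-/- empty cells kept open and both hi-77-/- GATA2 and most hi-77+/+ empty libraries did not. The second set was rarely open in either kind of cell with an empty vector. Of its regions, 843 (63.1%) had no peak in any hi-77+/+ empty library. This was not particular to the second set, since the same held for 65.5% of the first set, against 32.1% of all regions.

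**Figure D2:**
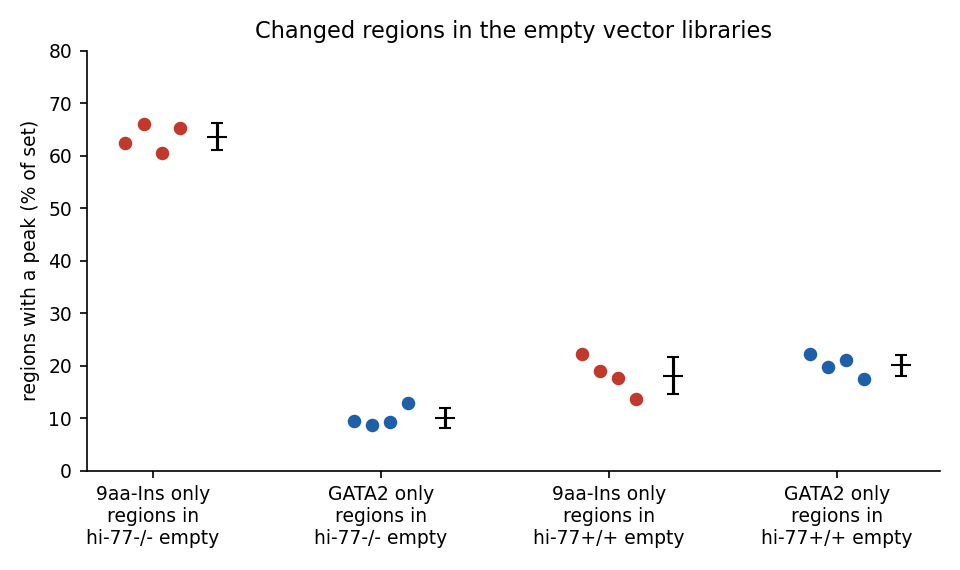
Share (percent) of the regions open with 9aa-Ins only (red) and of those open with GATA2 only (blue) that had a peak in each empty-vector library, with a point per library and bars for the mean ± SD of 4. For the 9aa-Ins side the 4 hi-77-/- empty libraries sit between 60.6 and 66.1% and the 4 hi-77+/+ empty libraries between 13.7 and 22.2%, and for the GATA2 side the 8 lie between 8.69 and 22.2%.

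Starting from the empty vector, 1565 regions had a peak in 0 of 4 hi-77-/- empty and 4 of 4 GATA2 libraries. Of these, 1018 had no peak in any 9aa-Ins library, 182, 92 and 95 had one in 1, 2 and 3 of them, and 178 had one in all 4. In the closing direction, 2021 regions had a peak in 4 of 4 hi-77-/- empty and 0 of 4 GATA2 libraries, of which 1213 kept a peak in all 4 9aa-Ins libraries and 96 had one in none. A smaller set was gained with the variant itself among the kept peaks: 1221 regions had a peak in 0 of 4 hi-77-/- empty and 4 of 4 9aa-Ins libraries, and 534 of them had none in any GATA2 library. Absence from the full peak lists of the hi-77-/- empty libraries was not checked, so weaker peaks may lie there. These counts share the hi-77-/- empty libraries and are given side by side as descriptions.

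Over whole peak sets, the Jaccard index (regions with a peak in both libraries over those with a peak in either) of a 9aa-Ins library with the hi-77-/- empty libraries was 0.699 ± 0.00806, against 0.604 ± 0.0126 for a GATA2 library (adjusted exact p = 0.0429). The hi-77-/- empty libraries had 0.728 ± 0.00238 among themselves and the hi-77+/+ empty libraries 0.562 ± 0.014 with them.

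WGATAR separated the 2 sides. At least 1 of its 4 letter forms, read on either strand of the 200 bp window, was present in 1041 of 1335 regions open with GATA2 only (78.0%), in 373 of 2685 open with 9aa-Ins only (13.9%) and in 26.3% of all regions. The share was 81.6% in the regions open with GATA2 only that hi-77-/- empty cells lacked. It did not rest on promoters, since in regions over 3 kb from a TSS it was 78.3% and 14% against 29.2% of all such regions, and in those within 3 kb 75.5% and 13% against 17.5%.

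Within the windows, 36.8% of the regions open with GATA2 only held at least 2 WGATAR matches, as did 0.782% of those open with 9aa-Ins only and 5.79% of all. The match lay nearer to the summit as well, at a median of 25 bp with GATA2 only, 50 bp with 9aa-Ins only and 43 bp over all regions that hold one. All 4 letter forms were more frequent with GATA2 only than in all regions, AGATAA most: it was in 48.5% against 9.99%, TGATAA in 26.9% against 7.46%, AGATAG in 19.9% against 7.71% and TGATAG in 12.4% against 5.31%. With 9aa-Ins only the 4 shares were 3.13, 2.79, 4.17 and 4.36%. An E-box (CANNTG) 6 to 14 bp from a WGATAR was in 7.94%, 0.782% and 2.00% of the regions open with GATA2 only, with 9aa-Ins only and of all. Pairs of WGATAR at most 5 bp apart were in 1.87%, 0.0372% and 0.327%. Both arrangements need a WGATAR, so these shares follow in part from the share with WGATAR. Among only the regions that held WGATAR, the E-box arrangement was in 106 of 1041, 21 of 373 and 1814 of 23834, and the pairs in 25, 1 and 296. A letter match is a description and does not show that a protein was bound.

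The regions open with 9aa-Ins only held more of the letters of other factors than those open with GATA2 only, except for AP-1 letters. EBF1 letters (TCCCNNGGGA; EBF1 directs the B lineage) were in 5.66% of them, in 0.375% of those open with GATA2 only and in 1.49% of all regions. PU.1 letters (GAGGAAGT or GGGGAAGT; PU.1 is an ETS factor of myeloid and B cells) were in 16.8, 6.67 and 11.0%, and other ETS letters (CCGGAAGT, CAGGAAGT, ACGGAAGT or AAGGAAGT) in 16.5, 10.3 and 10.3%. C/EBP letters (TTGCGCAA, TTGCACAA, TTGTGCAA, TTGCATCA or TTGCGTCA; C/EBP proteins drive granulocyte and monocyte genes) were in 7.34, 3.22 and 3.28%. RUNX letters (TGTGGTTT, TGTGGTCA or TGTGGTTA) were in 14.4, 12.6 and 9.16%, and AP-1 letters (TGAGTCA or TGACTCA) in 12.1, 16.2 and 9.17%. IRF letters (GAAANNGAAA) were in 2.50, 1.35 and 2.11%. All were searched on both strands, the ETS and PU.1 letters share a core but no full match, and a window can hold several kinds.

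The letters on the 9aa-Ins side split by what hi-77-/- cells had shown with an empty vector. Among the 1213 regions already open in all 4 hi-77-/- empty libraries, EBF1 letters were in 9.73%, PU.1 letters in 18.8%, C/EBP letters in 3.30% and AP-1 letters in 8.33%. Among the 534 regions with no kept peak in any hi-77-/- empty library the order turned. EBF1 letters were in 0.562%, PU.1 letters in 10.7%, C/EBP letters in 12.7% and AP-1 letters in 16.5%. WGATAR was below its share of all regions in both, at 13.3% and 16.9%. The 178 regions opened by both proteins had WGATAR in 63.5% and C/EBP letters in 13.5%.

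**Figure D3:**
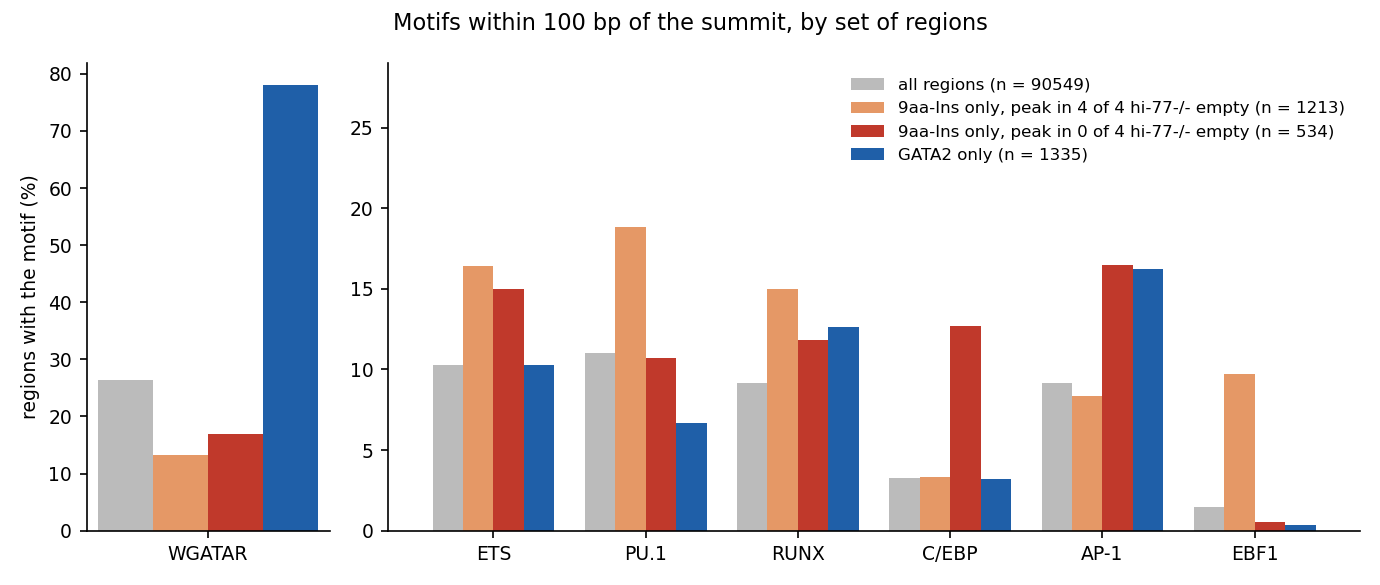
Share (percent, bars from 0) of regions whose 200 bp window held the letters of 7 kinds of motif, for all regions, the 1213 regions open with 9aa-Ins only that were open in 4 of 4 hi-77-/- empty libraries, the 534 open in none of them, and the regions open with GATA2 only; the left panel has its own scale. WGATAR is high with GATA2 only (78.0%), EBF1 letters in the first 9aa-Ins set (9.73%) and C/EBP letters in the second (12.7%).

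Counted over all 49000 kept peaks of a library, of which the changed regions are a small part, the motif differences were larger than the spread between libraries. Their direction was that of the changed regions except for AP-1 letters. These were less frequent in regions open with 9aa-Ins only than with GATA2 only, but more frequent over all peaks of the 9aa-Ins libraries (9.48 against 8.71%). WGATAR was in 20.4 to 20.9% of the peaks of the 9aa-Ins libraries (20.7 ± 0.252%) and in 26.1 to 27.2% with GATA2 (26.8 ± 0.496%; adjusted exact permutation p = 0.0286 over 10 motifs, n = 4 against 4). No 9aa-Ins library reached a GATA2 library, and the hi-77-/- empty and hi-77+/+ empty libraries averaged 20.2 ± 0.16% and 20.9 ± 0.349%. EBF1 letters were in 1.70 ± 0.0816% with 9aa-Ins, 1.03 ± 0.0349% with GATA2 and 1.99 ± 0.0706% in hi-77-/- empty libraries. PU.1 letters were in 12.9 ± 0.204, 10.0 ± 0.467 and 12.2 ± 0.197% of peaks.

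C/EBP letters were in 4.28 ± 0.111% of peaks with 9aa-Ins, in 3.29 ± 0.163% with GATA2 and in 3.09 ± 0.1% of hi-77-/- empty peaks. A mean above both was not particular to C/EBP or PU.1 letters. With 9aa-Ins, ETS letters were in 12.4%, RUNX letters in 10.0% and AP-1 letters in 9.48% of peaks. The hi-77-/- empty libraries averaged 11.4, 9.04 and 8.06%, and the GATA2 libraries 10.7, 8.76 and 8.71%. Only the difference from GATA2 was tested. Compared with GATA2, shares of ETS, RUNX, AP-1 and IRF letters were higher and those of the E-box with WGATAR and of paired WGATAR lower with 9aa-Ins. All 10 motifs had the same adjusted exact p of 0.0286, which is the smallest possible. Peaks within 3 kb of a protein-coding TSS made up 33.2 ± 0.737% with 9aa-Ins and 37.5 ± 1.56% with GATA2 (adjusted exact p = 0.0429).

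**Figure D4:**
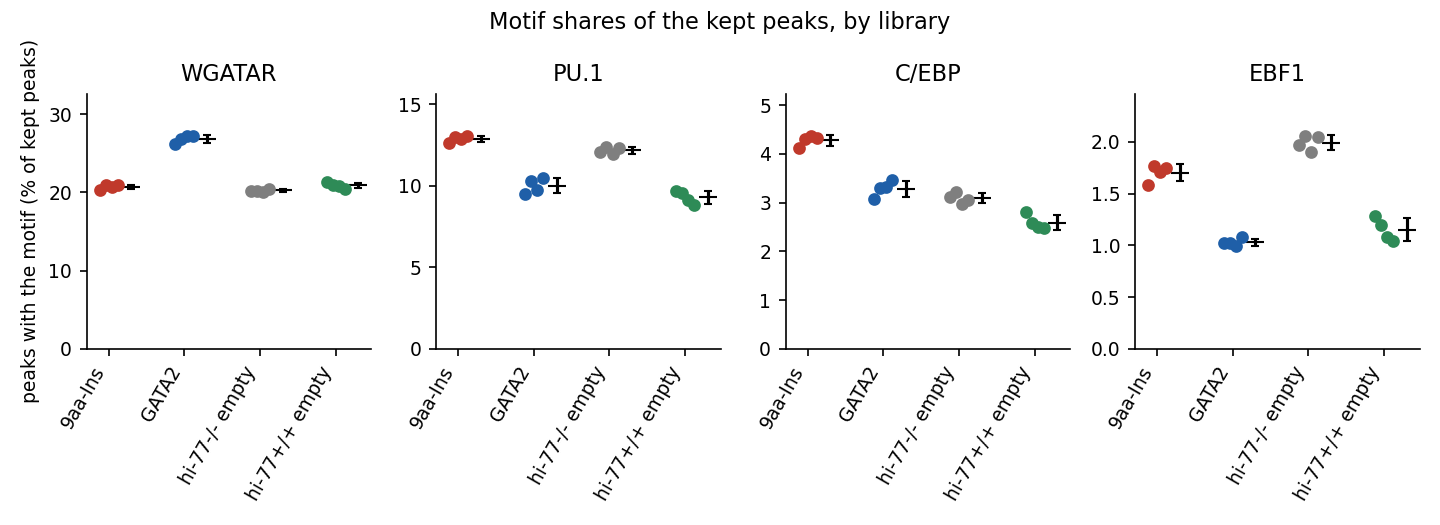
Share (percent) of the 49000 kept peaks of each library with WGATAR, PU.1, C/EBP or EBF1 letters within 100 bp of the summit, with a point per library, bars for the mean ± SD of 4, and a scale from 0 in each panel. In WGATAR the 4 GATA2 libraries (26.1 to 27.2%) stand above the 12 others. In C/EBP letters (4.11 to 4.37%) and in PU.1 letters (12.6 to 13.1%) the 4 9aa-Ins libraries do.

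Both kinds of changed regions were mostly distal. Promoters, within 3 kb of a TSS, held 10.6% of the regions open with 9aa-Ins only and 11.0% of those open with GATA2 only, against 24.7% of all regions. Introns outside promoters held 42.3, 46.7 and 35.5%, and intergenic sequence 43.6, 39.8 and 36.9%. The median distance to the nearest protein-coding TSS was 23.1 kb with 9aa-Ins only, 23 kb with GATA2 only and 14.7 kb over all regions. By chromosome, 1.99% (X) to 3.61% (18) of regions were open with 9aa-Ins only and 1.02% (X) to 1.85% (18) with GATA2 only.

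Among the strongest regions open with GATA2 only, the one upstream of Capzb (chr4:139179699-139180288) ranked 6669, 11036, 6423 and 8432 of 49000 in the 4 GATA2 libraries, counted from the most significant peak. It had no kept peak in 4 of 4 9aa-Ins and 4 of 4 hi-77-/- empty libraries and a weaker one in 3 of 4 hi-77+/+ empty libraries. The region upstream of Emx2 (chr19:59404582-59405521) ranked 8153, 10836, 8068 and 12035 and had none in the 12 other libraries. A region 81.7 kb upstream of Ywhaz, which encodes a 14-3-3 protein (chr15:36876024-36876672), ranked 8032, 8878, 6275 and 7354.

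The other 5 of the best 8 on the GATA2 side lay in introns of Vwa7, Dnajb8 and the prostaglandin E synthase gene Ptges and upstream of Aacs and the growth factor gene Fgf3. The region in the intron of Dnajb8 (chr6:88251817-88252952) is 30.0 kb downstream of its TSS. All 8 held WGATAR, and 5 of them, at Capzb, Ywhaz, Emx2, Dnajb8 and Ptges, had no peak in any hi-77-/- empty library.

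The strongest regions open with 9aa-Ins only were all open in hi-77-/- empty cells as well. The region downstream of Etv3 (chr3:87541988-87542867) ranked 11914, 10549, 8420 and 9118 in the 4 9aa-Ins libraries and 10009, 7975, 8497 and 9353 in the 4 hi-77-/- empty libraries. The region upstream of Lmo1 (chr7:109209674-109210232) ranked 17490, 13718, 14718 and 11087 with 9aa-Ins, 14040, 14474, 15511 and 13283 in the hi-77-/- empty libraries and had no peak in the hi-77+/+ empty libraries. The others of the best 8 were at Rhoq, a small GTPase gene (intron, chr17:86967609-86968953), Med13l, Atp6v0a4, Tmed3, Sparc, which encodes a matrix-binding protein (intron, chr11:55405412-55406223), and 4931429L15Rik. None of the 8 held WGATAR.

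To describe gene neighborhoods, each region was assigned to the nearest protein-coding TSS within 100 kb. Of 17003 genes with a region, 1873 (11.0%) had at least 1 region open with 9aa-Ins only and 998 (5.87%) at least 1 open with GATA2 only. Both kinds lay at 189 genes, which is 10.1% of the former and 18.9% of the latter. At least 3 regions lay at 73 genes on the 9aa-Ins side and at 26 on the GATA2 side.

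The genes with most regions open with 9aa-Ins only had 4 each, and there were 21 of them. Among these were Nrp1 and Nrp2, which encode neuropilins, the receptors for semaphorins and VEGF, as well as Il21r, the Ras-pathway regulator gene Rgl1, the transglutaminase gene Tgm3, the protein kinase C gene Prkch and the sulfatase gene Sulf2. Of the 16 regions at Nrp1, Nrp2, Il21r and Prkch, 14 had a peak in at least 1 hi-77-/- empty library, and the regions at Nrp1 (chr8:128284784-128285189) and Prkch (chr12:73594282-73594831) had none. At Tgm3, the regions chr2:129942791-129943191 and chr2:130022447-130022786 had none either. Over all regions open with 9aa-Ins only, 19.9% had none.

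On the GATA2 side, Sfi1 had 6 regions, Speer4d 5, and Il13, Pdia4 and Med14 4 each. At Sfi1 1 of 6, at Speer4d 0 of 5, at Pdia4 0 of 4 and at Med14 3 of 4 held WGATAR. Repeats made up at least 50% of the window in 2, 3, 2 and 2 of these regions, and unique reads can be lost from such sequence or from near-identical copies, so these 4 genes are uncertain. All 4 regions at Il13, the cytokine gene of type 2 immunity, held WGATAR.

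A second measure used every library and every kept peak. Open bases were summed over the peaks assigned to a gene, divided by the Mb under all kept peaks of the library to give open bases per open Mb, and compared with limma on log2(open bases per open Mb + 10), with Benjamini-Hochberg adjustment over 11672 gene territories with a mean of at least 20 open bases per open Mb. Differences are therefore shrunken at low levels. With 9aa-Ins, 1399 territories (12.0%) were higher and 1538 (13.2%) lower than with GATA2 at an adjusted p under 0.05, and the median log2 difference was -0.04. For genes named because of their changed regions this test uses the same peaks and is no independent evidence.

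The largest differences among higher territories whose libraries did not overlap were at Ric8a, Rgl1, Peli2, Irf4, Rtl6, Dscam, Rnf165 and Kcnk10, with log2 differences of 3.20 to 2.46. Peli2, which encodes a Pellino ubiquitin ligase of Toll-like receptor signaling, had 57.6, 63.3, 70.1 and 56.9 open bases per open Mb with 9aa-Ins and 0, 4.49, 0 and 0 with GATA2 (log2 difference 2.71 ± 0.257 SE, limma adjusted p = 3.33e-06). It was also above hi-77-/- empty cells (15 to 29.5), by 1.11 on the log2 scale (limma adjusted p = 0.0353). Irf4, an interferon regulatory factor of B and dendritic cells, had 63.8, 119, 52.3 and 71.1 against 0, 0, 5.16 and 9.52, and 31.3 to 84.5 in hi-77-/- empty libraries. Ric8a fell below the filter when each peak was assigned with its merged region, because peak midpoints moved between neighboring TSSs, and its difference is not used further.

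The largest differences among lower territories were at Hist1h3a, Gm17019, 4930572O03Rik, Speer4d, Duxf3, Ufd1, Gm10354 and Emx2, with log2 differences of -3.30 to -2.58. Hist1h3a and Ufd1 depend on peak midpoints in the same way as Ric8a. Speer4d and Duxf3 belong to multicopy families, and these, Gm17019, 4930572O03Rik and Gm10354 were highest in GATA2 replicate 1 (531 against 76.3 to 136 open bases per open Mb in the other 3 for Gm17019), so the 5 are uncertain. Emx2 had 6.13, 0, 6.58 and 12.8 with 9aa-Ins and 67.5, 97.0, 132 and 56.1 with GATA2 (-2.58 ± 0.26, limma adjusted p = 6.32e-06), and 6.53 to 13.2 in hi-77-/- empty libraries.

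**Figure D5:**
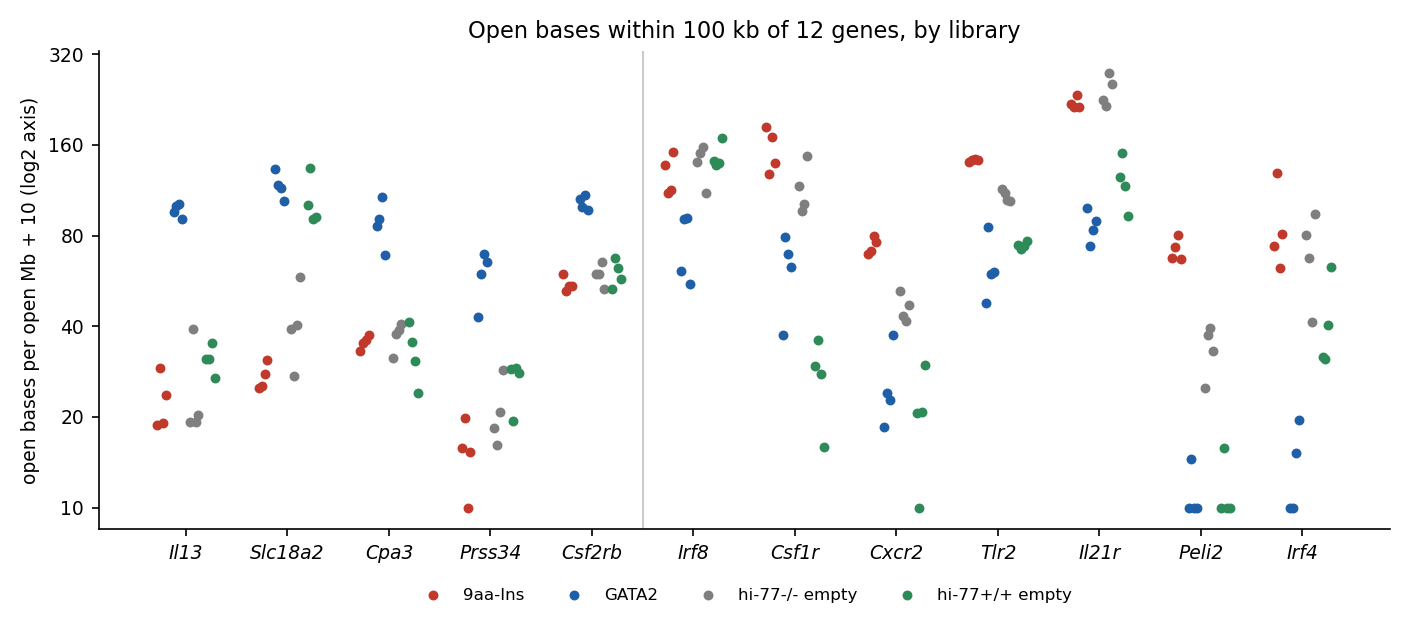
Open bases per open Mb plus 10 (log2 axis) within 100 kb of 12 genes described below, with a point per library in the 4 groups. At the 5 genes on the left the 4 GATA2 libraries lie above the 4 9aa-Ins libraries, and at the 7 genes on the right the 9aa-Ins libraries lie above the GATA2 libraries.

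Of 25 listed mast cell, basophil and eosinophil genes 17 were tested, and 7 were lower with 9aa-Ins (41.2%, against 13.2% of all territories; Cpa3, Prss34, Il4, Il13, Slc18a2, Alox5 and Cd200r3) and Mitf higher. The median log2 difference was -0.40, and 9 genes did not pass, among them Mcpt8 at 0.42, Hpgds at 0.45 and Ccr3 at 0.07; Alox5 was at 0.09 when 50% of the kept peaks were used. Regions open with GATA2 only lay at 12 of the 24 genes with a region (50%, background 5.87%), and regions open with 9aa-Ins only at 1. Promoter peaks were present at 11 to 13 of the 25 genes in 9aa-Ins libraries and 15 to 18 in GATA2 libraries. The share of all gene promoters with a peak was not counted, so promoter counts of this and the later lists are descriptions without a background.

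Il13 had 8.75, 19, 9.06 and 13.7 open bases per open Mb with 9aa-Ins and 85.8, 90.2, 92.1 and 80.7 with GATA2 (log2 difference -2.12 ± 0.21, limma adjusted p = 5.28e-06). The hi-77-/- empty libraries had 9.18 to 29.1, so 2 of the 9aa-Ins values lay within that range and 2 just below it. Of its 4 regions, the first (chr11:53634605-53635031) lay at the TSS and the last (chr11:53656866-53657162) in an intron of Rad50, 22.4 kb upstream.

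Slc18a2 had 14.9, 15.3, 17.7 and 20.9 with 9aa-Ins and 123, 108, 105 and 94.0 with GATA2 (-2.11 ± 0.181, limma adjusted p = 1.42e-06). Its region (chr19:59248163-59249195) had an E-box beside WGATAR and a peak in 0 of 4 hi-77-/- empty and 4 of 4 hi-77+/+ empty libraries, and the territory was open in hi-77+/+ empty cells too (80.5 to 124). Among hi-77-/- cells, the WGATAR region had its peak with GATA2 and not with the empty vector or 9aa-Ins.

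Cpa3, the mast cell carboxypeptidase gene, had 23.1 to 27.3 open bases per open Mb with 9aa-Ins and 59.0 to 97.3 with GATA2 (-1.30 ± 0.162, limma adjusted p = 3.33e-05). Its region at the promoter (chr3:20242012-20242404) held an E-box with WGATAR and had no kept peak in any library with an empty vector. Prss34, a basophil protease gene, was at -1.98 (limma adjusted p = 6.31e-05), and its region (chr17:25293414-25293871) held 4 WGATAR matches in 200 bp. Regions open with GATA2 only also lay at Ms4a2, the high-affinity IgE receptor β-chain gene, Il5ra, Mcpt4 and Tpsab1.

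GATA2-activated genes that the study names as examples gave a mixed picture; such lists were chosen by the study on cells of this system and are not independent evidence. Of 9 genes, 7 were tested, and Csf2rb and Far2 were lower with 9aa-Ins (28.6%, against 13.2% of all territories) and none higher (median -0.28). Regions open with GATA2 only lay at 4 of the 9 (44.4%, background 5.87%; Csf2rb, Gata1, Il1rl1 and Kit). In the other direction, a region open with 9aa-Ins only lay at 1 (11.1%, background 11.0%), S1pr1 (chr3:115681276-115681596). That region was open in all 4 hi-77-/- empty libraries. Csf2rb had 49.7, 42.3, 44.5 and 44.2 open bases per open Mb with 9aa-Ins and 95.5, 89.8, 99.4 and 87.4 with GATA2 (-0.90 ± 0.095, limma adjusted p = 8.7e-06). Both of its regions open with GATA2 only (chr15:78318438-78318699 and chr15:78321883-78322098) lacked a peak in the 8 empty-vector libraries. Far2, which encodes a fatty acyl-CoA reductase, had 34.6 to 51.1 and 84.2 to 110 (-1.0 ± 0.161, limma adjusted p = 0.000333). Csf2rb lies beside Csf2rb2, a similar gene, which was at -0.61 (limma adjusted p = 0.00802; 0.22 with 50% of the kept peaks), and reads that match both would be lost from unique alignment.

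Gata1 was too low for the territory test, but its promoter peak (chrX:7967782-7968174) was present in 4 of 4 GATA2 libraries, at ranks 19129, 39557, 25771 and 23878, and in 0 of 4 9aa-Ins libraries. A region 3.56 kb upstream (chrX:7971292-7971591) had the same pattern and held an E-box with WGATAR, and neither was kept in any empty-vector library. Il1rl1, the IL-33 receptor gene, and Kit, the stem cell factor receptor gene, each had a region open with GATA2 only (chr1:40418590-40418887 and chr5:75503805-75504013) but did not pass in the territory test (log2 difference -0.62, limma adjusted p = 0.0761, and -0.28, limma adjusted p = 0.137). Hdc, the histidine decarboxylase gene, was at -0.23 (limma adjusted p = 0.311).

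Peaks over the Gata2 coding exons need a separate reading, since the vectors carry this sequence and its fragments align there. The kept peaks covered 99.6, 98.8, 98.8 and 89.9% of the coding exon bases in the 9aa-Ins libraries, 46.5, 44.4, 49.0 and 63.2% in the GATA2 libraries, 7.64 to 8.75% in the hi-77-/- empty and 0% in the hi-77+/+ empty libraries. Both cDNA groups lie above the empty-vector groups, and they do not overlap each other. Vector copy number, openness of the vector and peak strength cannot be told apart here, and the amount of protein in the cells was not analysed here. Outside the exons, a region 47.8 kb upstream of Gata2 (chr6:88145840-88146260) was open with 9aa-Ins only at ranks of 29706, 22658, 18322 and 18320 and in all 4 hi-77-/- empty libraries but no hi-77+/+ empty library. A region open with GATA2 only lies in the same part of chromosome 6. It is the one in the intron of Dnajb8 (chr6:88251817-88252952), which was assigned to Dnajb8 as the nearest gene.

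GATA2-repressed genes named as examples by the study, were chosen in the same way. Of 11 genes 7 were tested, and Irf8, Tifab, Trem1 and Tlr1 were higher with 9aa-Ins (57.1%, against 12.0% of all territories) and none lower (median 0.58). Regions open with 9aa-Ins only lay at 4 of the 11 (36.4%, background 11.0%; Irf8, Il6ra, Il6st and Trem1) and regions open with GATA2 only at 0 (background 5.87%). Irf8, a factor of monocyte and dendritic cell fate, had 127, 101, 103 and 141 open bases per open Mb against 51.1, 80.9, 81.4 and 45.1 (0.80 ± 0.162, limma adjusted p = 0.00195). Its region in an intron of Gm20388 (chr8:120763336-120763667) held PU.1 letters and was open in all 4 hi-77-/- empty libraries. Il6ra and Il6st, the IL-6 receptor subunit genes, had log2 differences of 0.33 and 0.55 that did not pass (limma adjusted p = 0.0696 and 0.0798).

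Of 19 innate sensing genes tested, 10 were higher with 9aa-Ins (52.6%, against 12.0% of all territories) and 0 lower (median 0.56), and 9 did not pass, such as Tlr6 at 0.06 (limma adjusted p = 0.708). The higher genes were the Toll-like receptor genes Tlr1, Tlr2, Tlr4, Tlr9 and Tlr13, the DNA sensor genes Aim2 and Ifi204, and Tifab, Trem1 and Irf7. Tlr2, the receptor for bacterial lipoproteins, had 130, 133, 134 and 133 open bases per open Mb against 37.7, 75.2, 49.5 and 50.5 (1.20 ± 0.121, limma adjusted p = 6.32e-06), and 93.8 to 104 in hi-77-/- empty libraries. It had 3 regions open with 9aa-Ins only, and the one 17.5 kb upstream (chr3:83859081-83859390) had no kept peak in any empty-vector library. Promoter peaks were present at 23 to 24 of the 37 genes with 9aa-Ins and 17 to 20 with GATA2, with no count over all promoters to set beside them. Tifab, higher by 0.58, was at -0.05 when peaks were counted in place of open bases.

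Of 23 monocyte and dendritic genes tested, 6 were higher (Irf8, Klf4, Csf1r, Cx3cr1, Batf3 and Id2) and Fcgr1 lower (26.1 and 4.35%, against 12.0 and 13.2% of all territories; median 0.27), with Klf4 at -0.02 when 50% of the kept peaks were used. Csf1r, the M-CSF receptor gene, had 174, 118, 160 and 129 open bases per open Mb with 9aa-Ins and 27.3, 69.3, 59.3 and 52.8 with GATA2 (1.36 ± 0.254, limma adjusted p = 0.00136). The promoters of Ly6c2 and Trem2 had a peak in 4 of 4 9aa-Ins and 0 of 4 GATA2 libraries, and that of Ly6c2 (chr15:75111833-75112220) had none in the 8 empty-vector libraries. The whole Ly6c2 territory was at 0.01 (limma adjusted p = 0.97), with means of 109 open bases per open Mb in both groups.

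Neutrophil genes had 4 of 11 higher with 9aa-Ins (Mpo, Cebpa, Csf3r and Fcnb) and Gfi1 lower (36.4 and 9.09%, against 12.0 and 13.2% of all territories, median 0.25). Promoter peaks were at 13 to 15 of 19 genes against 9 to 11. The lists share genes, so a territory can count in several of them and the lists are not separate evidence. Mpo, Cebpa and Gfi1 are also in the progenitor list, Csf3r and Csf1r among the cytokine receptors, and Irf8, Tifab, Trem1 and Tlr1 among the repressed examples. Csf3r, the G-CSF receptor gene, had 41.1, 36.5, 60.8 and 43.6 open bases per open Mb with 9aa-Ins and 16.8, 29.2, 6.54 and 11.2 with GATA2 (1.15 ± 0.284, limma adjusted p = 0.00736), and 14.6 to 43.9 in hi-77-/- empty libraries. A region at the promoter of Lcn2, which encodes the iron-binding lipocalin of neutrophil granules (chr2:32387706-32388279), had a peak in 4 of 4 9aa-Ins libraries and in none of the 12 others, although 1 GATA2 library had another peak within 3 kb of a TSS of the gene.

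Chemokine and other G protein-coupled receptor genes were split, 4 of 18 higher (S1pr3, Cxcr2, Cx3cr1 and Ptger2) and 4 lower (Ccr1, C5ar1, C3ar1 and P2ry14), which is 22.2% each way against 12.0 and 13.2% of all territories. Cxcr2, a neutrophil chemokine receptor gene, had 59.7, 61.1, 69.8 and 66.1 against 8.48, 14, 12.8 and 27.4 (1.58 ± 0.262, limma adjusted p = 0.000404), and 31.7 to 42.2 in hi-77-/- empty libraries. Of its 2 regions, the intronic one printed above had no kept peak in any empty-vector library.

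Of 12 B lineage genes tested, Pax5, Blk, Blnk and Dntt were higher with 9aa-Ins (33.3%, against 12.0% of all territories) and none lower (median 0.18). Pax5, the B cell commitment factor gene, had 61.6 to 74.7 open bases per open Mb with 9aa-Ins, 40 to 47.9 with GATA2 and 65.6 to 93.8 in hi-77-/- empty libraries (0.51 ± 0.11, limma adjusted p = 0.00323). Its intronic region (chr4:44705782-44706298) was open in all 4 hi-77-/- empty and in no hi-77+/+ empty library. The Cd79a promoter, of a B cell receptor subunit, had a peak in 4 of 4 9aa-Ins and 0 of 4 GATA2 libraries. In the other direction, the promoter of Rag1, which encodes a recombinase subunit of antigen receptor genes, had one in 1 of 4 9aa-Ins and 4 of 4 GATA2 libraries. Regions open with GATA2 only lay at Rag1 and Bach2 (10.5% of 19 genes, background 5.87%), and regions open with 9aa-Ins only at 5 (26.3%, background 11.0%). Over all lists the latter share ran from 4.17% (mast cell, basophil and eosinophil genes) to 36.4% (GATA2-repressed examples). It was 29.2% for ETS factor, 26.1% for progenitor and 23.1% for endothelial and stromal genes. The share was thus not particular to B lineage genes.

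Of 27 cytokine receptor genes tested, 6 were higher (Csf3r, Csf1r, Il4ra, Il10ra, Il21r and Ifngr1) and 4 lower (Csf2ra, Csf2rb, Csf2rb2 and Epor) with 9aa-Ins, which is 22.2 and 14.8% against 12.0 and 13.2% of all territories, so the lower share was near the background. The lower genes include the α and β chains of the GM-CSF receptor. Il21r had 209, 204, 224 and 203 open bases per open Mb with 9aa-Ins, 88.4, 64.1, 73.3 and 79.5 with GATA2 and 205 to 268 in hi-77-/- empty libraries (1.36 ± 0.124, limma adjusted p = 2.27e-06).

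The progenitor list served to check the labelled cell type: 22 of its 24 genes had a promoter peak in all 8 libraries. Of 22 tested, 7 were lower with 9aa-Ins (Myb, Meis1, Gfi1, Lyl1, Tal1, Hlf and Zbtb16) and 2 higher (Cebpa and Mpo), which is 31.8 and 9.09% against 13.2 and 12.0% of all territories, with a median of -0.10. Myb, a factor of immature blood cells, had 206 to 227 with 9aa-Ins and 269 to 326 with GATA2 (-0.42 ± 0.116, limma adjusted p = 0.0148). In the erythroid and megakaryocyte list 4 of 13 were lower (30.8%; Epor, Zfpm1, Itga2b and Tal1) and Hemgn higher (7.69%). Zfpm1, which encodes the GATA cofactor FOG1, had 2 regions of each kind.

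Lists of cells the culture could also hold showed few tested genes. T and NK genes had 1 higher (Cd5) and 1 lower (Tbx21) of 9, hepatocyte genes 0 and 1 (Hnf4a) of 3, and endothelial and stromal genes 2 (Col1a1 and Pdgfrb) and 2 (Pdgfra and Acta2) of 7, where 12.0 and 13.2% of all territories were higher and lower. Hepatocyte promoters were open at 3 to 4 of 15 genes with 9aa-Ins and 3 to 5 with GATA2, and endothelial and stromal ones at 5 to 8 and 5 to 6 of 17. In bulk samples fewer cells of a type and less open chromatin per cell cannot be told apart, here and for the myeloid, mast cell and B lineage lists. Among 19 ETS factor genes tested, 2 were higher (Elk3 and Etv3) and 1 lower (Elf2), or 10.5 and 5.26%, which is no more than over all territories, with a median of 0.02. Regions open with 9aa-Ins only lay at 7 of the 24 ETS factor genes with a region (29.2%, background 11.0%). Regions open with GATA2 only lay at 3 of them (12.5%, background 5.87%). Elk3, higher with 9aa-Ins in open bases, had 2 regions open with GATA2 only (chr10:93262334-93262642 and chr10:93285264-93285592). It had no region open with 9aa-Ins only, so the region calls and the open bases differed in direction at this gene.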

How the data were processed

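ATAC-Seq was analysed in 8 libraries of 50000 cells each, with the other 8 of the series as references. Per the submitters' processing notes and the study's methods, the authors trimmed reads with Trim Galore 0.4.1, aligned them to mm10 with Bowtie2 2.2.5, kept unique reads, removed duplicates with Picard 2.26.0, shifted read ends for the transposase and called peaks per library with MACS2, without local background. The deposited peak lists give an integer score, a fold enrichment (ratio) over the background, -log10 p and q values, and a summit offset (bp). Read totals are unknown, so no counting interval is given. The step between deposited fold values gave the background pileup, 0.301 to 0.89 over the 16 libraries.

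Regions, presence calls, 200 bp windows and motif matches were computed in Python 3.11.15, with gene models from GENCODE M21. Limma 3.58.1 (trend and robust) in R 4.3.3 was fitted to all 16 libraries in 4 groups. It was also run on simulated data drawn with the means and spread of these libraries. Two-sided exact permutation tests served for quantities with a single value in each library. The study's own test, on read counts in peaks, was not run here. Members and gene lists were chosen with earlier results of these data known. Named were, per direction, the 8 changed regions of best median rank, the 10 genes with most changed regions, the 8 territories of largest difference without overlap of libraries, and listed genes with a changed region (up to 4 per list) or named by the study, and of the sequences windows at such regions that hold a searched motif.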

Additional observations from a re-analysis of the deposited data

Results flagged for a closer look

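In 80 groups of 4 libraries, 2 had a library far from the other 3, where chance would give about 4. The share of kept peaks with RUNX letters was 9.61% in 9aa-Ins replicate 1 and 10.2% in each of the others, a value that still lies above all 4 GATA2 libraries. Peaks covered 89.9% of the Gata2 coding exon bases in 9aa-Ins replicate 4 and 98.8 to 99.6% in the other 3. What set these libraries apart was not tested.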

How the results depend on the processing

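Counts of regions and some shares moved with the peak lists. Regions open with 9aa-Ins only numbered 1485 with 50% of the kept peaks, 6732 with all deposited peaks, 6015 when peaks had to cover 50% of a region and 1104 when absence was taken from the full lists; regions open with GATA2 only numbered 762, 659, 797 and 377. With all deposited peaks the lists differ in length between the groups. Leaving out each of the 8 libraries gave 2998 to 3347 and 1452 to 1714. WGATAR was in 6.18% and 59.9% of the 2 sets with a 100 bp window, in 11.1% and 72.6% with 50% of the kept peaks, and in 15.6% and 84.7% with all peaks. The mean share with a peak in hi-77-/- empty libraries was 66.7% and 13.5% with 50% of the kept peaks and 50.9% and 3.98% with all peaks.

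Territories higher and lower with 9aa-Ins numbered 537 and 464 by number of peaks and 803 and 711 with 50% of the kept peaks, and 2570 were lower with all peaks. Leaving out a library gave 1124 to 1369 higher and 1093 to 1445 lower. In an alternative chosen after the data were seen, peaks assigned with their merged region gave 1541 and 1775. Among named genes the direction turned for Tifab by number of peaks (-0.05), for Alox5 (0.09), Csf2rb2 (0.22) and Klf4 (-0.02) with 50% of the kept peaks, and for Med13l (-0.06) and Pdcd4 (0.43) with a 50 kb limit, and the cause was not tested. Of the other values of named territories under the alternatives, 2035 kept direction and side of the threshold, 50 lost and 41 gained significance.

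Replicate numbers did not pair the libraries (the correlations of same-numbered deviations were -0.038, 0.019, 0.014 and 0). With the replicate number as a block, limma called 1316 territories higher and 1368 lower, and in a sign-flip test the WGATAR share differed by -6.12 and the promoter share by -4.3 percentage points, each at an exact p of 0.125, the smallest that 4 pairs allow. Leaving out a library gave -6.35 to -5.99 for WGATAR and -4.76 to -3.66 for promoters. Peak lists without read totals limit what an absent peak means.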

Other observations

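Genes that the study grouped by RNA-Seq in this cell system were also looked up by name, so these lists are not independent of the cells measured. Of genes repressed by both proteins 209 were tested, and 100 were higher and 10 lower in open bases with 9aa-Ins than with GATA2 (median log2 difference 0.41, against -0.04 over all territories; background 12.0% and 13.2%). Regions open with 9aa-Ins only lay at 85 of 283 of these genes (30.0%, background 11.0%) and regions open with GATA2 only at 16 (5.65%, background 5.87%). For genes activated by both proteins, 7 were higher and 11 lower of 85 (8.24 and 12.9%, against 12.0 and 13.2% of all territories, median -0.04).

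Of genes activated by 9aa-Ins and not by GATA2, 72 were tested. Of these, 24 were higher and 3 lower (33.3 and 4.17%, against 12.0 and 13.2% of all territories, median 0.24). Peli2 (2.71) and Ttc21a (1.44) were among the higher. Regions open with 9aa-Ins only lay at 28 of 111 such genes (25.2%, background 11.0%) and regions open with GATA2 only at 3 (2.70%, background 5.87%). Of genes repressed by 9aa-Ins alone, 33 were higher and 28 lower of 182 (18.1 and 15.4%, against 12.0 and 13.2% of all territories, median 0.06).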
